A study of Mus musculus with 52 samples.

Results

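The 9 genes described here mark the neural cells that surround the blood vessels of the mouse brain and the neurohypophysis. Snap25, Slc17a7, Gad1, Neurod1 and Gabra6 mark neurons, Aqp4 and Slc1a2 mark astrocytes, and Mbp and Mog mark oligodendrocytes. They were taken by name and are 9 of the 49585 genes quantified in 40 RNA libraries. The comparison asked how much of each neural gene remained in preparations enriched for vascular endothelial cells (ECs), by tissue and by genotype. On GRCm38, Snap25 lies at chr2:136713453-136782428 (plus strand), Gad1 at chr2:70553072-70602014 (plus), Neurod1 at chr2:79452521-79456751 (minus) and Slc1a2 at chr2:102658659-102790784 (plus). Slc17a7 lies at chr7:45163949-45176142 (plus), Gabra6 at chr11:42306437-42321072 (minus) and Mog at chr17:37010743-37023398 (minus), while Aqp4 and Mbp are on chromosome 18. All counts are summed over the annotated transcripts of a gene.

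In 24 of the libraries, GFP-positive (EC) and GFP-negative (non-endothelial) cells were sorted by flow cytometry from papain-dissociated cerebellum, anterior pituitary and posterior pituitary of adult male mice. The WT mice were Tie2-GFP, in which the Tie2 promoter drives GFP in ECs. The stabilized mice were Tie2-GFP; Pdgfb-CreER; BcatEx3fl and had received 4-hydroxytamoxifen as pups, so that ECs with Cre activity delete exon 3 of Ctnnb1 and accumulate beta-catenin. In the other 16 libraries, RNA came from cortex and choroid plexus of young adult mice treated with 4-hydroxytamoxifen, WT being RiboTag; Pdgfb-CreER and stabilized being RiboTag; Pdgfb-CreER; BcatEx3fl. In these mice Cre in ECs switches on an HA-tagged ribosomal protein. Input is an aliquot of the whole homogenate and bound is the RNA that came down with the anti-HA antibody. Each of the 20 RNA groups had 2 libraries, and cells or tissue of several mice were pooled for the pituitary and choroid plexus samples. The p-values measure only the spread between these samples. A further 12 libraries, 2 for each of 6 groups of GFP-positive cells, were ATAC-seq.

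Neurons signal through vesicles that fuse at the synapse, and SNAP25 is part of the fusion machinery, which endocrine cells also use. Glutamatergic and GABAergic neurons are told apart by the vesicular glutamate transporter (Slc17a7) and by glutamate decarboxylase (Gad1), and cerebellar granule cells by the GABA-A receptor subunit Gabra6 and the transcription factor Neurod1. Astrocyte endfeet cover brain capillaries and carry the water channel AQP4, while the glutamate transporter encoded by Slc1a2 clears the synapse. Oligodendrocytes wrap axons in myelin, of which MBP and MOG are components. Transcripts of these genes are used to gauge what a sort or a pull-down leaves behind. In bulk RNA, fewer cells of a type and less RNA per cell cannot be told apart.

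The RNA libraries held 6409013 to 37529274 estimated counts. All 10 endothelial markers tested (among them Esam, Pecam1 and Cdh5) were called higher in the EC fraction of 9 of the 10 preparations, and 9 of 10 were in the WT anterior pituitary, where 4.46% to 10.1% of all genes were called higher over the 10 preparations. Summed over these markers, GFP-positive libraries held 1867 to 6356 TPM (Salmon's abundance per transcript length, scaled to the library) and GFP-negative libraries 2.3 to 35.2. The labelled tissues also carried their own markers, with 7 choroid plexus epithelium genes summing to 35480 to 44010 TPM in choroid plexus input. Posterior pituitary GFP-negative cells were not free of endocrine cells, as 12 pituitary endocrine genes summed to 27980 to 57420 TPM there, against 35060 to 65330 in the anterior pituitary. Different genes made up these sums in WT. Most of the posterior sum was Pomc (53700 and 55700 TPM) and most of the anterior sum was Prl (31200 and 45300 TPM). The library labelled stabilized anterior pituitary GFP-positive replicate 2 is called anterior in its title and posterior in its tissue field. It was grouped by its title, and values without it are given where they bear on a call. In it the 12 endocrine genes summed to 4180 TPM, against 4777 in replicate 1 and 348 and 813 in stabilized posterior pituitary ECs. Which label is right was not tested. Because the deletion removes an exon rather than the gene, the gene-level count of Ctnnb1 could not check the stabilized label.

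In the cerebellum, sorting removed most of the RNA of all 9 genes. In WT mice, 8 of the 9 were called lower in ECs than in GFP-negative cells (edgeR quasi-likelihood test, Benjamini-Hochberg adjusted p under 0.05 and at least 2-fold), where 6.89% of the 21343 genes tested were. In stabilized mice, 9 of 9 were called lower, against 9.92% of genes, but the Slc17a7 call was lost when only the groups compared were fitted (adjusted p = 0.0645) and the Slc1a2 call with a transcript length offset (adjusted p = 0.0705). The median log2 fold change of the 9 was -5.59 in WT and -7.14 in stabilized mice, beside medians over all genes of -0.12 and 0. The share of the GFP-negative level that remained was computed as the mean TPM of the EC libraries over the mean TPM of the GFP-negative libraries, with the SD over the 2 EC libraries. In WT it ran from 0.218% for Mog to 9.51% for Mbp, while the median share over 5291 protein-coding genes was 91.9%.

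Among the neuronal genes, Snap25 was the most abundant. It stood at 226.5 and 192.3 TPM in the WT GFP-negative libraries and at 3.93 and 5.99 TPM in the EC libraries, so that 2.37% ± 0.69 remained (SD, n = 2). The fitted change was -5.59 ± 0.80 (log2, SE; edgeR, adjusted p = 0.000125). In the stabilized mice Snap25 went from 616 and 581 TPM to 2.02 and 11.7 TPM, a change of -7.03 ± 0.85 (edgeR, adjusted p = 1.34e-05). The fractions did not overlap in either genotype.

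The markers of neuronal subtypes were rarer. Gad1, which makes GABA and is strong in Purkinje cells and interneurons, read 37.0 and 95.9 TPM in WT GFP-negative cells and 1.91 and 0.896 TPM in ECs (-6.04 ± 1.19, adjusted p = 0.0028). In stabilized mice it read 64.8 and 9.30 TPM in GFP-negative cells and had 0 reads in both EC libraries, which in CPM (counts scaled to the library total) is at least 3053-fold lower, taking 3 reads over the group as the floor. Neurod1 went from 19 and 10.8 TPM to 0.394 and 0.551 TPM in WT (-5.02 ± 1.13, adjusted p = 0.00783), and this call was lost without WT GFP-positive replicate 1. Gabra6, expressed in the brain mainly by granule cells, went from 51.3 and 15.0 TPM to 0.103 and 1.66 TPM (-5.16 ± 1.13, adjusted p = 0.00823), and this call was lost when only the WT cerebellum groups were fitted (adjusted p = 0.0727). As a ratio, the EC libraries lay further apart for Gabra6 than the GFP-negative libraries did. In stabilized mice Neurod1 went from 54.0 and 62.6 TPM to 1.33 and 0.0446 TPM and Gabra6 from 88.0 and 85.0 TPM to 1.51 and 1.0 TPM.

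Slc17a7 was the only gene of the 9 not called in the WT cerebellum by edgeR. Its levels did not overlap, with 13.5 and 9.18 TPM in GFP-negative cells and 0.876 and 0.372 TPM in ECs, and 5.50% ± 3.14 (SD, n = 2) remained. The change was -4.32 ± 1.68 with an adjusted p of 0.12 in edgeR, and Slc17a7 was called in 3 of 11 other settings. In stabilized mice the gene went from 13.6 and 11.5 TPM to 0 and 0.385 TPM and was called (-7.21 ± 1.94, adjusted p = 0.0137).

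The astrocyte genes kept 0.630% and 0.631% in the WT cerebellum, where the 5 neuronal genes kept 2.11% to 5.50%, and 0.684% and 3.84% in stabilized mice, where the neuronal genes kept 0% to 1.54%; neither difference was tested. The 3.84% of Slc1a2 was 7.50% and 0.181% in the 2 EC libraries, and in CPM it was 0.829%, inside the neuronal range of 0% to 1.10%. Aqp4 went from 253 and 111 TPM to 1.36 and 0.934 TPM, or 0.630% ± 0.167 (SD, n = 2), with a change of -7.49 ± 1.2 (edgeR, adjusted p = 0.000389). Slc1a2 went from 305 and 102 TPM to 0.814 and 1.75 TPM, or 0.631% ± 0.327 (-7.00 ± 1.57, adjusted p = 0.00578). Both GFP-negative values were higher in replicate 1. In stabilized mice Aqp4 went from 98.7 and 27.4 TPM to 0.519 and 0.344 TPM, and Slc1a2 from 129 and 66.2 TPM to 7.33 and 0.177 TPM. The high Slc1a2 TPM in stabilized EC replicate 1 came with 691 estimated reads, against 82 in replicate 2.

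In the WT cerebellum the oligodendrocyte genes gave the highest and the lowest share of the 9. Mbp stood at 209 and 379 TPM in WT GFP-negative cells and at 32.1 and 23.7 TPM in ECs, so 9.51% ± 2.04 (SD, n = 2) remained (-3.70 ± 0.67, edgeR, adjusted p = 0.00118). Mog went from 45.4 and 144 TPM to 0 and 0.412 TPM, leaving 0.218% ± 0.308. Both genes were higher in GFP-negative replicate 2. In stabilized mice Mbp went from 1623 and 1386 TPM to 9.85 and 26.9 TPM, and 1.22% ± 0.80 remained, whereas Mog went from 21.8 and 23.8 TPM to 0 reads in both EC libraries, at least 1303-fold lower in CPM. The Mbp level left in ECs, between 9.85 and 32.1 TPM, overlapped between the genotypes. The GFP-negative level was 209 to 379 TPM in WT and 1386 to 1623 TPM in stabilized mice, a difference short of a call (adjusted p = 0.053).

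**Figure D1:**
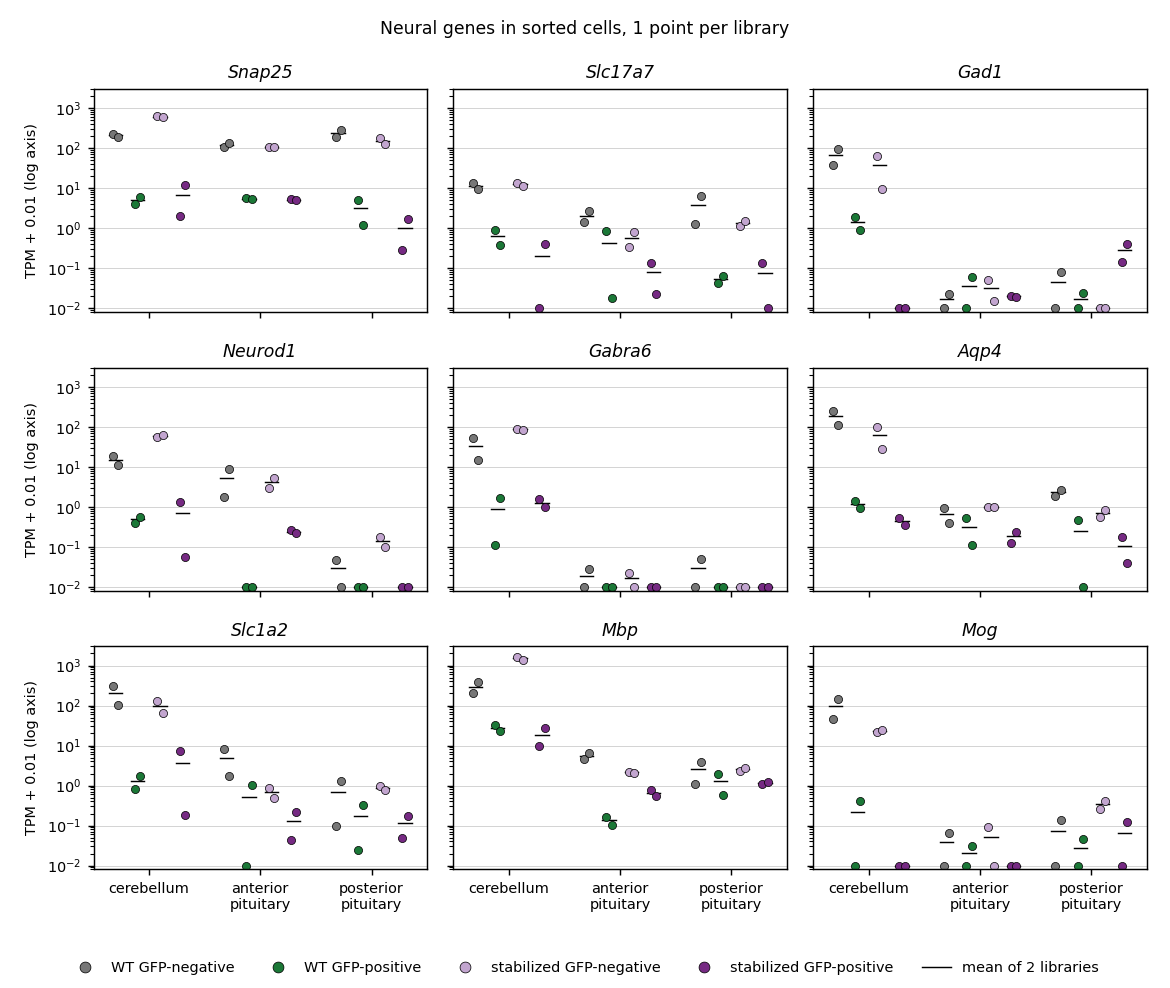
TPM + 0.01 on a log axis of each of the 9 genes in the 24 libraries of sorted cells, by tissue, with 1 point per library, dashes at the mean of 2 libraries, and colours for genotype and fraction. In the cerebellum the GFP-positive points of every gene lie below the GFP-negative points of the same genotype, while in both pituitary lobes 8 of the 9 genes are already low in the GFP-negative cells and Snap25 alone is above 100 TPM there.

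Most but not all other markers of the same cell types were called lower in cerebellar ECs, where 6.89% (WT) and 9.92% (stabilized) of all genes were. Of 14 general neuronal genes, 11 were called lower in WT ECs and 10 in stabilized ECs, Map2, a dendritic microtubule protein, falling from 137 and 81.8 TPM to 7.77 and 4.35 TPM in WT. Of 7 granule cell genes 3 and 6 were called lower, and of 6 Purkinje cell genes 3 and 3. Of 12 astrocyte genes 10 and 11 were called lower. Slc1a3, another astrocyte glutamate transporter, went from 3690 and 764 TPM to 19.4 and 3.61 TPM. Of 13 oligodendrocyte genes 11 and 10 were called lower. Some members kept much of their level or read higher in ECs, and 3 are named here after their values were seen. Mal, a membrane protein of myelin that other cells also make, kept 92.8% of TPM in WT and 592% in stabilized mice, without a call. Stmn2, a neuronal microtubule regulator, kept 102% in WT and 37.7% in stabilized mice. The Purkinje gene Itpr1 kept 40.6% in WT, where it was called lower, and 34.5% in stabilized mice. Gja1, the astrocyte gap junction gene, was the most abundant of the named astrocyte genes left in WT cerebellar ECs, at 78.9 and 78.0 TPM, or 6.94% of GFP-negative cells.

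The 2 WT cerebellar GFP-negative libraries were not alike in make-up. Replicate 1 held 9710 TPM of the 12 astrocyte genes and replicate 2 held 2905, while the 13 oligodendrocyte genes summed to 1362 and 3655 TPM and the 7 choroid plexus epithelium genes to 58.1 and 4841 TPM. Red cell RNA was uneven too, with 4 erythrocyte genes at 19700 and 206 TPM in GFP-negative and 65200 and 6655 TPM in GFP-positive libraries. Their part in the shares that remained was not tested. Leaving out either library left 8 of the 9 genes called.

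**Figure D2:**
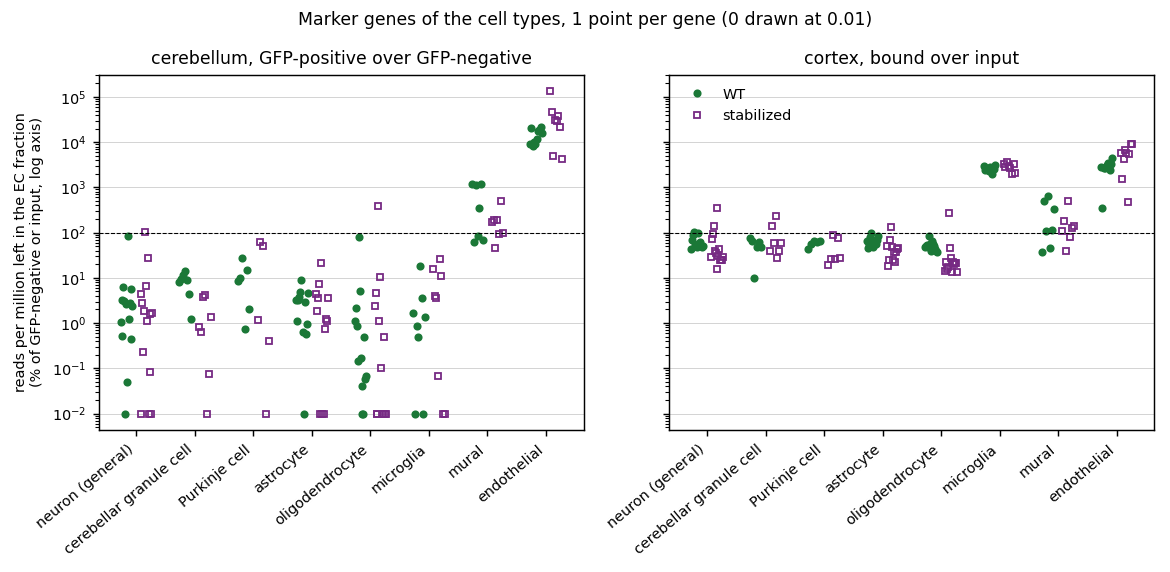
CPM left in the EC fraction, as a percentage of the GFP-negative or input level on a log axis, with 1 point per gene of 8 marker lists, filled circles for WT and open squares for stabilized mice, and 0 drawn at 0.01. In the cerebellum most neuronal, astrocyte, oligodendrocyte and microglia genes lie below 10% and the endothelial genes above 1000%, whereas in the cortex most neural genes lie between 10% and 100% and microglia genes lie above 1000%.

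In the anterior pituitary, an endocrine gland with no resident neurons or oligodendrocytes, Snap25 was the only abundant gene of the 9. In WT it stood at 108 and 134 TPM in GFP-negative cells and 5.61 and 5.21 TPM in ECs, so 4.49% ± 0.23 (SD, n = 2) remained (-4.43 ± 0.75, edgeR, adjusted p = 0.000589). In stabilized mice it stood at 106 and 104 TPM and at 5.29 and 4.93 TPM. The GFP-negative level of Snap25 was not called different between anterior pituitary and cerebellum (-0.89 ± 0.66, adjusted p = 0.50). Snap25, Neurod1 and Mbp were called lower in ECs in both genotypes, 3 of 9 each time, where 5.87% of WT and 3.15% of stabilized genes tested were.

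Neurod1, which also acts in pituitary corticotrophs, read 1.76 and 8.83 TPM in WT anterior pituitary GFP-negative cells and had 0 reads in both EC libraries, at least 292-fold lower. In stabilized mice it read 2.98 and 5.14 TPM and 0.254 and 0.208 TPM, and 5.68% ± 0.81 (SD, n = 2) remained. The stabilized call (-4.61 ± 1.12, adjusted p = 0.016) was lost without either GFP-positive library, including the one with conflicting tissue labels; the other 2 genes stayed called without that library. Mbp fell from 4.69 and 6.37 TPM to 0.155 and 0.0953 TPM in WT and from 2.21 and 2.09 TPM to 0.769 and 0.523 TPM in stabilized mice, where the call was lost with the length offset (adjusted p = 0.0543). Aqp4 lay between 0.394 and 0.972 TPM in the 4 GFP-negative libraries and between 0.102 and 0.504 TPM in the 4 EC libraries, a difference not called in either genotype. Slc1a2 read 8.17 and 1.77 TPM in WT GFP-negative cells, with 0 and 171 reads in ECs, and 0.859 and 0.475 TPM in stabilized GFP-negative cells, with 15 reads in each EC library. Slc17a7 went from 1.38 and 2.64 TPM to 0.829 and 0.0080 TPM in WT and from 0.320 and 0.767 TPM to 0.124 and 0.0129 TPM in stabilized mice, without a call (adjusted p = 0.43 and 0.21). Gad1, Gabra6 and Mog had 0 to 7 reads in any anterior pituitary library.

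In the posterior pituitary, where axons of hypothalamic neurons end among glial pituicytes, Snap25 was again high outside the ECs. In WT it stood at 191 and 285 TPM in GFP-negative cells and at 5.09 and 1.21 TPM in ECs, with 1.33% ± 1.15 (SD, n = 2) remaining (-6.30 ± 0.82, edgeR, adjusted p = 3.29e-05). In stabilized mice the values were 175 and 124 TPM and 0.270 and 1.71 TPM (-8.22 ± 0.90, adjusted p = 9.07e-06). Slc17a7, at 1.26 and 6.42 TPM in WT GFP-negative cells, came down to 3 reads in each EC library.

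Of the 9 genes, Snap25, Slc17a7 and Aqp4 were called lower in WT posterior pituitary ECs, where 7.45% of genes were, and Snap25, Neurod1 and Mbp in stabilized ECs, where 5.04% were. These counts rested on single libraries. Without WT GFP-positive replicate 2, which had 37 Snap25 reads against 335 in replicate 1, 1 gene was called, and without WT GFP-negative replicate 1, 5 were. Without stabilized GFP-positive replicate 2, 1 gene was called lower. The calls of Slc17a7 in WT and of Neurod1 and Mbp in stabilized mice were each lost without any of 3 of the 4 libraries. In stabilized mice Neurod1 had 19 and 11 reads in GFP-negative cells and 0 in both EC libraries, at least 8.66-fold lower, and Mbp went from 2.29 and 2.81 TPM to 1.1 and 1.2 TPM (-2.08 ± 0.64, adjusted p = 0.0427). Aqp4 went from 1.90 and 2.68 TPM to 0.468 TPM and 0 reads in WT. Mbp did not separate in WT, with 1.06 and 3.98 TPM in GFP-negative cells and 1.95 and 0.557 TPM in ECs. Slc1a2 went from 0.0900 and 1.26 TPM to 0.0151 and 0.317 TPM in WT (adjusted p = 0.15) and from 0.987 and 0.767 TPM to 0.0390 and 0.168 TPM in stabilized mice (-3.86 ± 1.42, adjusted p = 0.10). Mog had 0 to 17 reads and Gabra6 0 or 1 read in any posterior pituitary library. With the replicate block, the Slc17a7 call in WT (adjusted p = 0.0565) and the Neurod1 call in stabilized mice (adjusted p = 0.0574) were lost, and Mbp was called lower in WT (-1.69, adjusted p = 0.0344). With only the groups compared, Slc17a7 and Aqp4 in WT (adjusted p = 0.129 and 0.418) and Neurod1 in stabilized mice (adjusted p = 0.0641) were lost, and with the length offset Mbp in stabilized mice (adjusted p = 0.279).

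Gad1 was the exception in direction. In the stabilized posterior pituitary it had 0 reads in both GFP-negative libraries and 16 and 50 reads (0.135 and 0.394 TPM) in the EC libraries, at least 25.4-fold higher in CPM, and was called higher (edgeR, adjusted p = 0.0135), where 5.49% of genes were. WT posterior pituitary ECs had 0 and 1 Gad1 reads. The genotype difference in these ECs was not called (adjusted p = 0.10), and without stabilized GFP-positive replicate 1 the gene was called between the genotypes.

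Among the marker lists, 6 and 6 of 14 general neuronal genes were called lower in WT and stabilized anterior pituitary ECs and 7 and 6 in posterior pituitary ECs. Of 13 oligodendrocyte genes, 1, 1, 0 and 0 were. Over all genes, 5.87% (WT) and 3.15% (stabilized) were called lower in the anterior lobe and 7.45% and 5.04% in the posterior lobe. Of 12 pituitary endocrine genes, 5 and 6 were called lower in the anterior and 8 and 7 in the posterior lobe, so Snap25 fell there beside the endocrine genes, whose part in it was not tested. The astrocyte list split, since Gja1 was higher in WT anterior pituitary ECs (474 and 440 TPM) than in GFP-negative cells (1.02 and 42.5 TPM; +5.88 ± 0.48, adjusted p = 5.93e-07).

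Ribosome pull-down from cortex left far more neural RNA than sorting from cerebellum did. In WT cortex none of the 9 genes was called lower in bound than in input RNA by edgeR, although 5 had an unadjusted p under 0.05 and 4.18% of 18241 genes were called; DESeq2 called 1. Input was taken from the homogenates used for the pull-down, and a fit with the replicate number as a block within each tissue and genotype called 5 of the 9 lower, namely Snap25 (-1.15, adjusted p = 0.00982), Gad1 (-1.18, 0.0153), Aqp4 (-1.16, 0.0105), Mbp (-1.20, 0.00246) and Mog (-1.21, 0.035). The labels do not say that the numbers mark the homogenates. The shares of input TPM that remained ran from 49.8% for Neurod1 to 90.7% for Slc1a2, among the 8 genes with reads in input. The median share over 6094 protein-coding genes was 96.2%. The fitted changes of those 8 lay between -0.78 and -1.43 on the log2 scale, beside a median over all genes of -0.33.

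Snap25 stood at 1489 and 1677 TPM in WT cortex input and at 859 and 993 TPM in bound RNA, with 58.5% ± 5.98 (SD, n = 2) of TPM and 53.2% ± 2.02 of CPM remaining (-1.14 ± 0.51, edgeR, adjusted p = 0.15). Slc17a7, the transporter of cortical excitatory neurons, stood at 127 and 141 TPM and at 78.3 and 90.8 TPM. Gad1 of cortical interneurons overlapped between the fractions, with 67.6 and 96.2 TPM in input and 36.7 and 76.5 TPM in bound RNA. Gabra6, whose transcript is largely cerebellar, had 0 reads in both inputs and 1 read in bound RNA.

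The astrocyte and oligodendrocyte genes were not called in WT cortex either, in the fit without the block. Aqp4 went from 16.6 and 19.7 TPM to 9.69 and 11.0 TPM (-1.15 ± 0.40, adjusted p = 0.070). Slc1a2 went from 355 and 425 TPM to 334 and 374 TPM and overlapped, but in CPM 67.0% ± 20.3 (SD, n = 2) remained, against 90.7% of TPM. Mbp went from 704 and 601 TPM to 352 and 471 TPM (-1.18 ± 0.38, adjusted p = 0.051) and Mog from 63.7 and 43.3 TPM to 28.9 and 33.3 TPM (-1.24 ± 0.41, adjusted p = 0.060). In CPM, the 8 genes kept between 43.1% and 67.0%, where the sorted WT cerebellum had kept 0.216% to 9.04%.

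**Figure D3:**
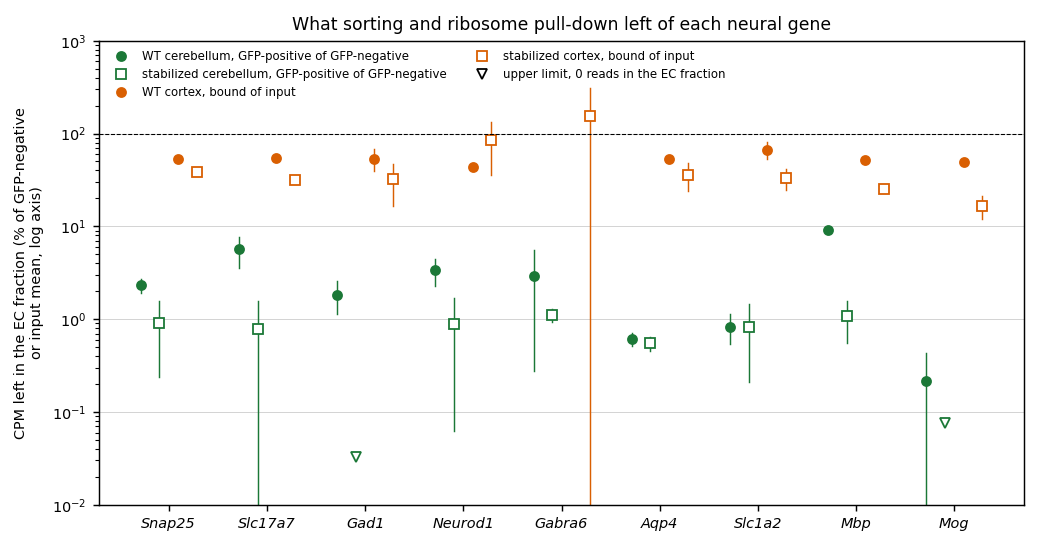
CPM left in the EC fraction of each of the 9 genes, as a percentage of the mean GFP-negative or input level on a log axis, for cerebellum (green) and cortex (orange), with filled circles for WT, open squares for stabilized mice and lines from the lower to the higher of 2 EC libraries. Triangles are upper limits where both EC libraries had 0 reads. The cerebellar symbols lie at 9.04% or lower and the WT cortical symbols at 43.1% to 67.0%; Gabra6 has no WT cortical symbol because input had 0 reads.

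In stabilized cortex 6 of the 9 genes were called lower in bound RNA, where 12.2% of genes were. They were Snap25, Gad1, Aqp4, Slc1a2, Mbp and Mog. Mbp went from 232 and 223 TPM in input to 89.2 and 87.5 TPM in bound RNA, with 38.9% ± 0.54 (SD, n = 2) of TPM and 25.4% ± 1.10 of CPM remaining (-2.32 ± 0.39, edgeR, adjusted p = 0.000667), and Mog from 12.8 and 15.1 TPM to 5.49 and 2.03 TPM (-2.94 ± 0.44, adjusted p = 0.000382). Snap25 went from 330 and 439 TPM to 273 and 222 TPM (-1.72 ± 0.52, adjusted p = 0.025). Without stabilized bound replicate 1, 2 of the 9 genes were called, and Snap25 and Slc1a2 were also lost without bound replicate 2 or input replicate 2. With the length offset Snap25, Gad1 and Slc1a2 were lost (adjusted p = 0.104, 0.412 and 0.222), and with the replicate block Slc17a7 was called as well (-1.95, adjusted p = 0.0107). Gad1 was uneven between the bound libraries, at 3.90 and 32.98 TPM with 209 and 844 reads.

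The difference in depletion between stabilized and WT cortex was not called for any of the 9 genes, including Mog (difference -1.70 ± 0.58, adjusted p = 0.25) and Mbp (-1.14 ± 0.53, adjusted p = 0.40). The 2 genotypes also differed in what else the cortical libraries held. Nuclear protein-coding genes took 34.2% to 43.7% of TPM in WT cortex and 14.1% to 24.9% in stabilized cortex, and the small RNA gene Gm23935 took 1229 to 4092 TPM in WT and 310100 to 522300 TPM in stabilized cortex. Snap25 input was lower in stabilized cortex by TPM, also over nuclear protein-coding genes alone (2346 and 3083 against 4351 and 4380 TPM in WT), while the fit on counts gave -0.45 ± 0.50 (adjusted p = 0.74). The make-up of stabilized cortex libraries was also seen without stabilization. WT choroid plexus libraries held 450500 to 507000 TPM of Gm23935, and nuclear protein-coding genes took 15.2% to 23.3% of their TPM. Genotype and library make-up cannot be told apart in the cortex.

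The transcripts to which reads were assigned differed between the same libraries. For each gene the transcript whose mean share of TPM differed most between WT and stabilized cortex input is given, and for Aqp4 and Neurod1 this was a transcript with 100% in both. Slc17a7-201 took 95% to 99% of Slc17a7 TPM in the 4 stabilized cortex libraries and 0.812% to 3.57% in the 4 WT cortex libraries. Snap25-201 took 40.9% to 51.9% in stabilized and 96.9% to 99% in WT cortex, and Mbp-209 38.2% to 43.7% in stabilized and 0% in WT cortex. These ranges did not overlap between the genotypes. In WT choroid plexus libraries with at least 100 reads of the gene, Slc17a7-201 took 87.9% and 95.4%. There Snap25-201 took 67.1% to 97.5% and Mbp-209 0% to 52.6%.

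Gad1-206 took 5.2% and 7.31% in stabilized input and 77.2% and 81.4% in WT input. Slc1a2-212 took 48.6% and 52.4% in stabilized input and 9.38% and 12.1% in WT input, and Mog-202 took 58.7% and 68.1% against 1.59% and 2.19%. In the sorted cerebellum, GFP-negative Snap25-201 stood at 96.7% to 99.7% and Mbp-209 at 0% to 2.95% in both genotypes. The transcript split of these 2 genes in stabilized cortex was therefore not seen in stabilized cerebellum. In the same cells Gad1-206 took 54.9% and 55.5% in stabilized and 81.5% and 82.4% in WT mice. Slc17a7-201 took 26.1% and 54.9% against 7.48% and 17%, so neither range overlapped between the genotypes. Slc1a2-212 overlapped, at 0.424% and 32.6% against 4.8% and 7.9%, and Mog-202 was at 1.45% or lower.

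In choroid plexus, an epithelium around fenestrated capillaries with little neural tissue, all 9 genes were low in input. Snap25 stood at 12.3 and 3.27 TPM in WT input and 7.6 and 3.63 TPM in bound RNA, and Mbp at 5.10 and 3.04 TPM and 16.4 and 11.6 TPM. Although Mbp was higher in bound RNA by TPM, its fitted change on counts was +0.09 ± 0.38 (edgeR, adjusted p = 0.92), with 358 and 382 reads in input and 437 and 388 in bound RNA. Slc1a2 stood at 5.61 and 2.47 TPM in WT input and 13.9 and 1.74 TPM in bound RNA, Slc17a7 at 1.34 and 0.279 TPM and 1.54 and 0.604 TPM, and Aqp4 at 0.596 and 0.636 TPM and 0.886 and 0.772 TPM. Neurod1 had 0 to 27 reads and Gabra6 0 to 4 in any choroid plexus library. None of the 9 genes was called in WT choroid plexus, where 6.64% of genes were called lower; 2 had an unadjusted p under 0.05, and DESeq2 called 1. With the replicate block, Snap25 (-1.40, adjusted p = 0.00396) and Gad1 (-1.32, adjusted p = 0.0434) were called lower.

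In stabilized choroid plexus Gad1 and Mog were called lower in bound RNA, where 8.48% of genes were, from few reads. Gad1 had 24 and 32 reads in input and 2 and 3 in bound RNA (-3.39 ± 0.88, adjusted p = 0.0138), while by TPM the fractions overlapped, with 0.208 and 0.936 TPM and 0.538 and 0.0682 TPM. Mog had 8 and 15 reads in input and 0 in both bound libraries, at least 5.21-fold lower. The count of genes called ranged from 1, without bound replicate 1 or input replicate 2, to 4, without bound replicate 2, and the Gad1 call was lost with the length offset (adjusted p = 0.153). Aqp4 was called lower as well in 6 of 11 other settings, among them the replicate block (-1.11, adjusted p = 0.0171).

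**Figure D4:**
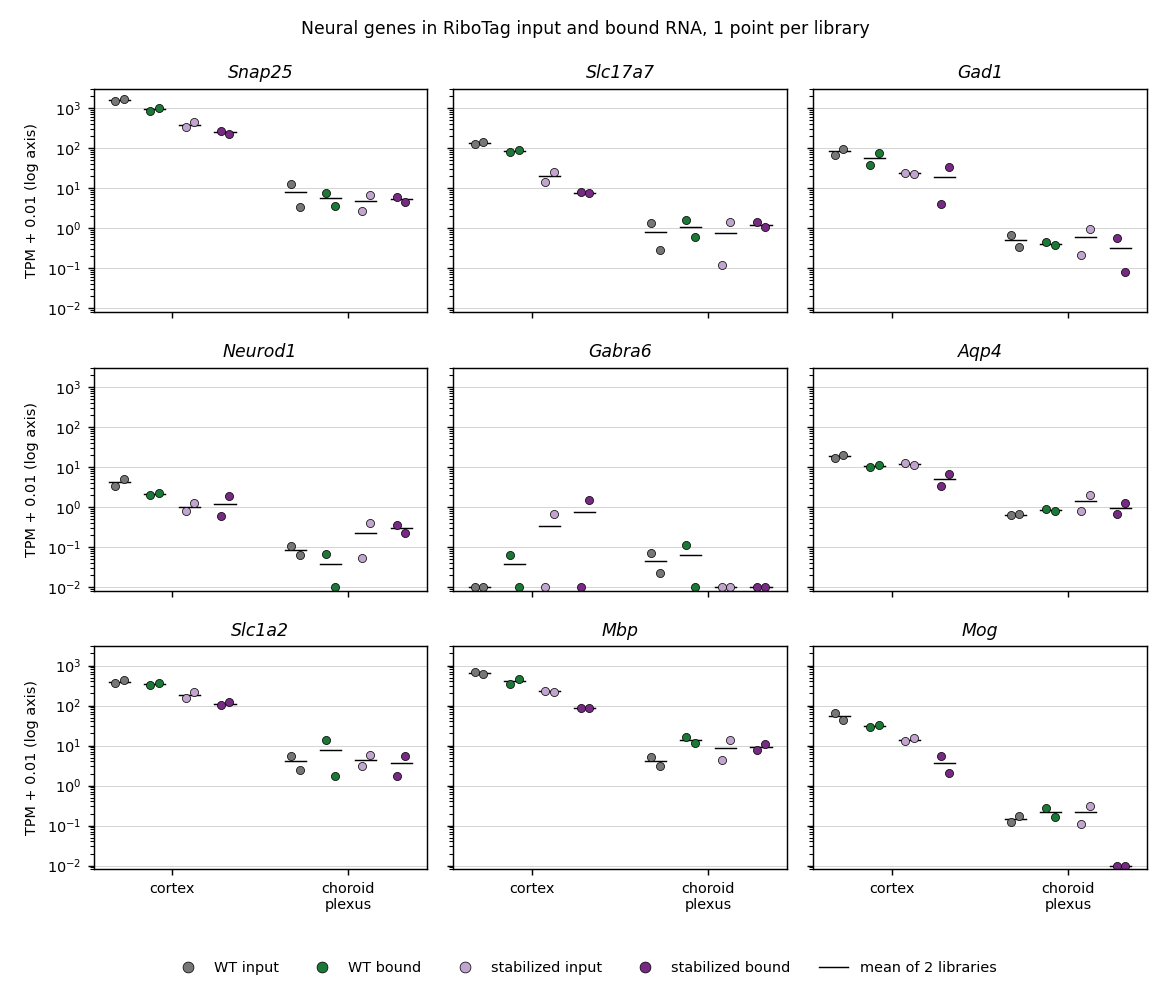
TPM + 0.01 on a log axis of each of the 9 genes in the 16 RiboTag libraries, by tissue, with 1 point per library, dashes at the mean of 2 libraries, and colours for genotype and fraction. In WT cortex the bound points lie just under the input points for most genes, the stabilized cortex points lie lower than the WT points of the same fraction for 8 of the 9 genes, Gabra6 being the exception, and the choroid plexus points are lower than the cortex points for 8 of the 9 genes. Nuclear protein-coding genes took 14.1% to 24.9% of TPM in stabilized cortex and 34.2% to 43.7% in WT cortex. Fitted on counts, 5 of the 9 genes were lower in stabilized than in WT cortex input and 7 in bound RNA.

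The other markers of each type were counted after pull-down too. In WT cortex, 1 of 14 general neuronal, 2 of 12 astrocyte and 4 of 13 oligodendrocyte genes were called lower, where 4.18% of all genes were. Among them was Cnp, a myelin enzyme, at 121 and 103 TPM in input and 73.2 and 69.7 TPM in bound RNA (-1.17 ± 0.22, edgeR, adjusted p = 0.00301). In stabilized cortex 8, 9 and 12 of these lists were called lower, where 12.2% of all genes were. All 8 microglia genes were called higher in bound RNA in both genotypes, where 7.46% (WT) and 10.1% (stabilized) of genes were, and summed to 92.5 and 102 TPM in WT input and 3569 and 2476 TPM in WT bound RNA, above the 1023 and 385 TPM of the 10 endothelial genes. In the sorted WT cerebellum, microglia genes summed to 149 and 190 TPM in GFP-negative cells and 18.6 and 12.1 TPM in ECs. There 6 of 8 were called lower, where 6.89% of all genes were. What part these genes had in the neural shares was not tested.

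Sorting and pull-down were set side by side but not tested against each other, since they used different tissues, mice and libraries. Within the sorted cells, the WT depletion differed between anterior pituitary and cerebellum for Gad1 and Aqp4 (2 of 9 genes higher in the difference, where 1.93% of genes were). For Aqp4 the difference was +6.34 ± 1.41 (edgeR, adjusted p = 0.0152), from 0.937 and 0.394 TPM to 0.504 and 0.102 TPM in the anterior pituitary against 253 and 111 TPM to 1.36 and 0.934 TPM in the cerebellum. For Gad1 it was +7.82 ± 2.01 (adjusted p = 0.044), on 2 reads in GFP-negative and 7 reads in EC libraries of the anterior pituitary. The Gad1 call was lost without WT anterior pituitary GFP-negative replicate 1, without WT anterior pituitary GFP-positive replicate 2 or without WT cerebellum GFP-negative replicate 2, and with only the groups compared (adjusted p = 0.0819) or the length offset (adjusted p = 0.0614).

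Between posterior pituitary and cerebellum no gene of the 9 differed in its depletion by edgeR, where 3.72% of all genes did; 3 had an unadjusted p under 0.05, and DESeq2 called 1. Between posterior and anterior pituitary (0.839% of genes) the counts were 0, 1 and 2, and between choroid plexus and cortex (12.1%) they were 0, 1 and 0. All 3 shares are from edgeR and do not apply to the DESeq2 counts. The depletion of Mbp differed between the lobes by +3.43 ± 0.92 (adjusted p = 0.10), with 2.26% of WT GFP-negative TPM left in anterior and 49.8% ± 39.1 (SD, n = 2) in posterior pituitary ECs, where the libraries read 77.5% and 22.1% and CPM gave 28.4%. With the replicate block this difference was called (+3.80, adjusted p = 0.0292), as was that of Mbp between choroid plexus and cortex (+1.28, adjusted p = 0.0153). The Mbp difference between the lobes was also called without either of WT anterior pituitary GFP-negative replicate 2 and GFP-positive replicate 1, or either of WT posterior pituitary GFP-negative replicate 2 and GFP-positive replicate 2. Aqp4 was called between the lobes without WT posterior pituitary GFP-positive replicate 1, and between posterior pituitary and cerebellum without its replicate 2.

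Between genotypes, the depletion of no gene was called different in any of the 5 tissues, where 0.112% (anterior pituitary), 0.431% (cerebellum), 0.44% (posterior pituitary), 0.565% (cortex) and 0.312% (choroid plexus) of genes were. By unadjusted p under 0.05 there were 2 genes in anterior pituitary, 2 in cerebellum, and 1 each in posterior pituitary, cortex and choroid plexus, and DESeq2 called 0, 2, 1, 0 and 1. The shares of all genes are from edgeR, and those under DESeq2 are not given. In the cerebellum, Mbp differed by -3.08 ± 0.88 (edgeR, adjusted p = 0.19). It was called without stabilized GFP-positive replicate 2 or WT GFP-negative replicate 2, Gad1 without stabilized GFP-negative replicate 2 or WT GFP-positive replicate 2, and Neurod1 without stabilized GFP-positive replicate 1. In the posterior pituitary Gad1 was called without WT GFP-negative replicate 1. In the anterior pituitary the Mbp difference had the opposite sign, +2.07 ± 0.90 (adjusted p = 0.72). These p-values do not show that the genotypes were depleted alike.

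The levels themselves were also compared between genotypes in the 10 kinds of library. Gad1 was called lower in stabilized cerebellar ECs (0 and 0 reads against 278 and 103; adjusted p = 0.0213; 0.572% of genes were lower), a call lost when only the groups compared were fitted (adjusted p = 0.434). Mog was called lower in stabilized choroid plexus bound RNA (0 and 0 reads against 9 and 5; adjusted p = 0.0397; 1.69% of genes), a call lost without any of 3 of the 4 libraries, WT bound replicate 2 being the one that could be left out, and with the length offset (adjusted p = 0.0805). In stabilized cortex bound RNA, Gad1 (-1.70 ± 0.46, adjusted p = 0.0222) and Mog (-2.20 ± 0.43, adjusted p = 0.00497) were called lower, where 6.31% of genes were, the Gad1 call being lost without stabilized replicate 1 or WT replicate 2, with only the groups compared (adjusted p = 0.0913) or with the length offset (adjusted p = 0.674), and the Mog call without stabilized replicate 2.

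In the other 7 kinds of library no gene of the 9 was called between genotypes, where 0.0281% and 0.394% of genes (GFP-negative and GFP-positive anterior pituitary), 0.717% (GFP-negative cerebellum), 0.595% and 0.979% (GFP-negative and GFP-positive posterior pituitary), 4.42% (cortex input) and 0.0822% (choroid plexus input) were. Unadjusted p-values under 0.05 numbered 0 to 4 in them and DESeq2 called 0 to 2. The nearest to a call was Mbp in cerebellar GFP-negative cells, +2.79 ± 0.65 (edgeR, adjusted p = 0.053), from 209 and 379 TPM in WT to 1623 and 1386 TPM in stabilized mice, and it was called without stabilized replicate 1 or without WT replicate 2. Snap25 in the same cells, at 227 and 192 TPM and 616 and 581 TPM, gave +2.18 ± 0.68 (adjusted p = 0.21).

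Across WT tissues, the non-endothelial levels followed the tissue. Gad1, Gabra6, Aqp4, Slc1a2, Mbp and Mog were called lower in anterior pituitary than in cerebellar GFP-negative cells (6 of 9, where 4.1% of genes were; Slc1a2 was lost with the length offset, adjusted p = 0.134), and the same 6 with Neurod1 in the posterior pituitary (7 of 9, 5.31%). Between the lobes, Neurod1 alone was called, at 1.76 and 8.83 TPM in anterior and 0.0375 and 0 TPM in posterior pituitary (-7.48 ± 1.36, adjusted p = 0.0131; 0.693% of genes were lower), a call lost when only the groups compared were fitted (adjusted p = 0.267). In choroid plexus input 8 of the 9 genes were lower than in cortex input, where 21.1% of genes were, Gabra6 being the exception with 0 to 4 reads in either. The Neurod1 call was lost without either choroid plexus library or cortex replicate 2.

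Mbp has transcripts from 2 groups of starts, and the groups split by tissue. Of its 16 annotated transcripts, 4 begin at the distal starts, known as the Golli promoter, and 12 begin 79324 bases or more downstream, where classic myelin transcripts start. In cerebellar GFP-negative cells the distal starts took 0.0731% to 1.33% of Mbp TPM. In anterior pituitary GFP-negative cells they took 100% in all 4 libraries, on 589 to 1087 estimated reads. In posterior pituitary GFP-negative cells they took 53.4% to 85.6%.

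The share that remained was also computed by start, without a test. In WT cerebellum, the classic starts went from 206 and 376 TPM to 32.1 and 23.6 TPM (9.58% left) and the distal starts from 2.77 and 2.21 TPM to 0 and 0.0422 TPM (0.848% left). In WT posterior pituitary the distal starts went from 0.907 and 2.40 TPM to 0.272 and 0.270 TPM, while the classic starts read 0.153 and 1.58 TPM in GFP-negative cells and 1.68 and 0.287 TPM in ECs and overlapped. In WT cortex 63.1% of distal and 63.1% of classic TPM remained, while in stabilized cortex the distal starts read 2.31 and 3.61 TPM in input and 1.17 and 3.71 TPM in bound RNA and overlapped, and 38.3% of classic TPM remained. In the cortex the distal share was 0.98% to 4.24% in all 8 libraries, and in choroid plexus 9.60% to 57.4%. In the anterior pituitary, where GFP-negative Mbp was all assigned to distal starts, Mog had at most 6 reads in a library.

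**Figure D5:**
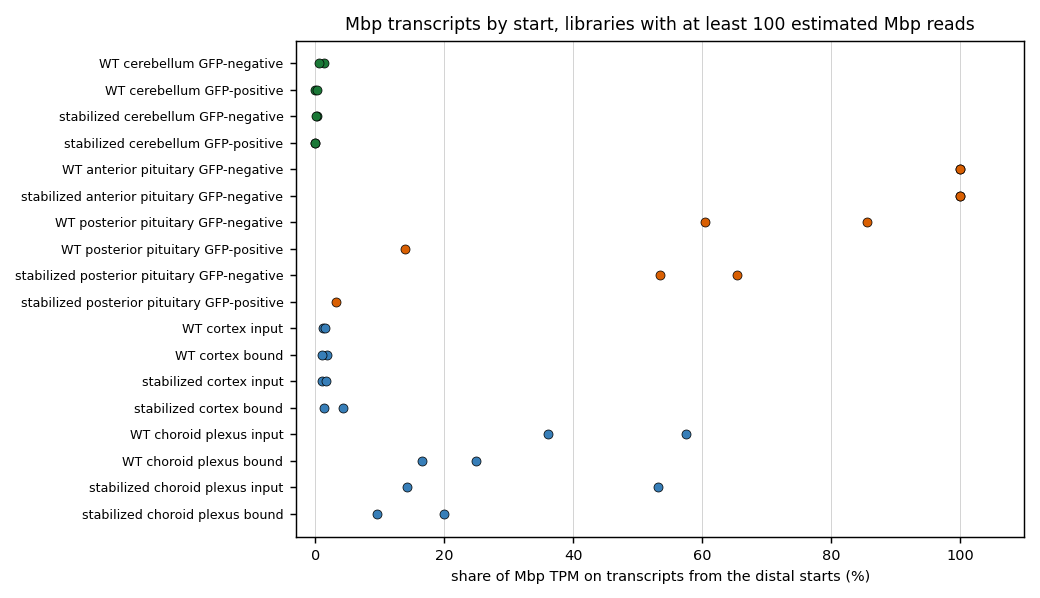
Share of Mbp TPM (percent) on transcripts from the distal starts, with 1 point per library that had at least 100 estimated Mbp reads, and colours for cerebellum, pituitary and RiboTag tissue. The cerebellar and cortical points lie at 4.24% or lower, and the anterior pituitary GFP-negative points all lie at 100%.

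Open chromatin at the starts of the 9 genes was read from the ATAC-seq peaks of GFP-positive cells (a peak within 500 bp of an annotated start in both replicates). In WT and stabilized cerebellar ECs 0 of the 9 genes had such a peak, where 50% and 53.1% of 21938 protein-coding genes did. In anterior pituitary ECs Slc17a7 and Mbp had a peak in WT and Slc17a7 in stabilized mice (57% and 57.5% of genes). In posterior pituitary ECs Slc17a7 and Mbp had one in WT and no gene in stabilized mice (50.3% and 53.6%). All 10 endothelial markers had a peak in each of the 12 libraries.

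The Slc17a7 peak lay on the start of the gene, with summits 39 bases upstream to 41 bases downstream of its first base, and had a fold enrichment over local background of 5.08 and 5.06 in the WT anterior lobe. The stabilized anterior lobe had 5.75 and 6.81, and the WT posterior lobe 3.21 and 2.9. In stabilized posterior pituitary, replicate 1 had it at 3.65 and replicate 2 had none. The Mbp peaks, at a fold enrichment of 3.22 to 4.8, all lay on the distal starts. With a fold enrichment over 4 and a q of 1e-05 or less, the WT posterior pituitary count was 0. Slc17a7 RNA in the WT anterior pituitary ECs was 0.829 and 0.0080 TPM, with 135 reads and 1 read.

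Promoter windows from RefSeq (GRCm38.p6; 250 bases before to 50 bases after the start) were at hand for 6 of the 9 genes. The window of Slc17a7, chr7:45163671-45163970 on the plus strand, is shown because ECs of both pituitary lobes had a peak on it, and that of Gabra6, chr11:42321023-42321322 on the minus strand, because no EC library had a peak there. Capitals mark GGGCGG or its reverse complement CCGCCC, the letters of a GC box, searched on both strands with overlaps allowed.
Slc17a7: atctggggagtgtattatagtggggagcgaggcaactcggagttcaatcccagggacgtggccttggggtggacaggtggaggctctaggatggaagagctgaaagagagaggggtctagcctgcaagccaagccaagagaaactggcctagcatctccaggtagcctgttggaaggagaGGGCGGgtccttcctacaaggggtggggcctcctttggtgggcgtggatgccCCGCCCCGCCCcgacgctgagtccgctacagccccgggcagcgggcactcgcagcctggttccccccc
Gabra6: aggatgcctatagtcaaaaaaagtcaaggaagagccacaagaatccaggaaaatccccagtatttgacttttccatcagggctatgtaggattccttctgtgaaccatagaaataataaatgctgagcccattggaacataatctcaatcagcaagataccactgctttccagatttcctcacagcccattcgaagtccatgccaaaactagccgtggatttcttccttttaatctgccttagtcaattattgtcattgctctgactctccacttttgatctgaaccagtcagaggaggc

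The Slc17a7 window held 13 CpG and 3 such matches and the Gabra6 window 2 CpG and no match. Over 32851 windows of the same length the median was 7 CpG, and 35.7% held a match. CpG counts in the other 4 windows ran from 1 (Slc1a2) to 26 (Neurod1), and neither Neurod1 nor Gad1, with 21, had an EC peak in these windows.

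The genes most like each of the 9 across tissues were found by Pearson r of log2(mean TPM + 1) over the 20 RNA groups, among 10436 genes, as a description. The nearest were Ina and Camk2b for Snap25 (r = 0.982 and 0.979), Rbfox1 for Slc17a7 (0.982), Ntsr2 for Gad1 (0.985), Pax6 for Neurod1 (0.907) and Cbln3 for Gabra6 (0.991). For the glial genes they were Gjc3 for Aqp4 (0.979), Stmn4 for Slc1a2 (0.973), Mobp for Mbp (0.971) and Fa2h for Mog (0.993). The 20 groups share tissues, mice and genotypes and are not independent points.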

How the data were processed

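RNA was measured in 24 libraries of sorted cells and 16 RiboTag libraries, and open chromatin by ATAC-seq in 12 libraries of GFP-positive cells. The authors quantified RNA reads with Salmon 0.10.2 on the GRCm38 transcriptome, and deposited estimated counts and TPM per transcript. Per the labels, ATAC-seq reads were aligned with Bowtie2 2.3.2, duplicates were removed with Picard, and peaks were called in each library with MACS2 2.1.1.20160309; the deposited peak files give fold enrichment over local background, −log10 of the q-value and a score that was not used. The submitters' processing notes also name kallisto 0.44.0 and deepTools.

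Here, transcripts were summed per gene with the GENCODE annotation (130338 of 130740 transcripts matched; the 402 others held 0.0588% to 0.385% of counts and were left out). Estimated counts were rounded and tested in edgeR 4.0.16 (R 4.3.3) by the quasi-likelihood test with TMM normalization and filterByExpr, which kept 21343 genes over the 24 sorted libraries and 18241 over the 16 RiboTag libraries. Each experiment was fitted with all its groups, without a replicate block, in 33 contrasts in all, and p-values were adjusted over all genes by Benjamini-Hochberg. Calls needed an adjusted p under 0.05 together with at least a 2-fold change. Where a group had 0 reads, folds were bounded with 3 reads over the group, in CPM. TPM is relative to each library's total, so shares that remained move with RNA outside these genes. Medians over protein-coding genes used those at 10 TPM or more on average in GFP-negative or input libraries.

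All 9 genes were tested in every comparison and described by their values or reads, and from each marker list the counts called and the 3 genes of highest TPM in WT GFP-negative or input libraries of the tissue; Gja1 of the anterior pituitary, Slc1a3, Map2 and Cnp were taken from those, and 1 further gene is not reported here. The 9 genes and the marker lists were chosen with earlier results of these data known. A peak counted for a gene when it lay within 500 bp of an annotated start in both replicates. Counts were also simulated from gene means over all libraries of an experiment, with the same fixed dispersion for every gene. Changes were put only into the EC group named. For WT cerebellar ECs (19412 genes), the test recovered 3.2%, 69.8% and 100% of changes of 2-, 4- and 16-fold with 4 false calls. For WT cortex bound RNA (16701 genes) it recovered 7.9%, 63.8% and 100% with 1 false call. The dispersion was not taken from the data, so these percentages do not give the power for the 9 genes. Alternatives were DESeq2 1.42.0, RLE normalization, no filter on low counts, a transcript length offset, a fit of only the groups compared, no fold threshold, a replicate block, a pseudocount on TPM and leaving out each library. A fit on nuclear protein-coding genes alone was chosen after seeing the data. Python 3.11.15 with pandas 2.3.3, numpy 2.4.6, scipy 1.17.1 and matplotlib 3.10.9 was used for the rest.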

Additional observations from a re-analysis of the deposited data

Results flagged for a closer look

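The change from GFP-negative cells to ECs differed between WT anterior pituitary and WT cerebellum, by the test of that difference, for Gad1 (+7.82 on the log2 scale) and Aqp4 (+6.34). Gad1 had 2 reads in anterior pituitary GFP-negative cells and 7 in ECs, so this difference sets a fall in the cerebellum against counts near the floor in the anterior pituitary. Aqp4 had 378 reads in anterior pituitary GFP-negative cells and 157 in ECs, and stood below 1 TPM in every anterior pituitary library. The part of these low levels in the 2 differences was not tested.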

How the results depend on the processing

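Counts are of the 9 genes called. Over all genes in the 10 fraction comparisons, DESeq2 called 1.08 to 1.77 times as many as the main fit, and dropping the filter 1.09 to 1.49 times. Fitting only the groups compared called 0.408 to 2.46 times as many and the length offset 0.499 to 0.847 times. For the other comparisons the shares of all genes under these settings are not given. DESeq2 called 5 in stabilized anterior pituitary, 6 in stabilized posterior pituitary, and 1 each in WT cortex and WT choroid plexus. For the depletion it called 2 (cerebellum), 1 (choroid plexus) and 1 (posterior pituitary) between genotypes, and 2 (posterior against anterior pituitary) and 1 (posterior pituitary against cerebellum) between tissues. For levels between genotypes it called 1 in GFP-positive anterior pituitary, 2 in GFP-negative cerebellum, 2 in bound choroid plexus and 1 in GFP-positive posterior pituitary. Without the filter, depletion counts were 6 in stabilized anterior pituitary, 2 in WT choroid plexus, and 6 and 5 in stabilized and WT posterior pituitary. Between genotypes they were 2 (anterior pituitary), 2 (cerebellum), 1 (choroid plexus), 3 (cortex) and 2 (posterior pituitary), and between tissues 4, 4 and 4 for the pituitary and cerebellar pairs. Levels between genotypes without the filter gave 3 in GFP-positive anterior pituitary, 4 and 2 in GFP-negative and GFP-positive cerebellum, 3 and 1 in bound and input choroid plexus, 7 and 1 in bound and input cortex, and 2 and 2 in GFP-negative and GFP-positive posterior pituitary, and 3 between the pituitary lobes. Fitting only the groups compared gave 5 in stabilized anterior pituitary, 1 in stabilized choroid plexus, 1 in WT posterior pituitary, 1 for anterior pituitary against cerebellum, and 0 for GFP-positive cerebellum, bound choroid plexus and the lobes' levels. The transcript length offset gave 3 in stabilized cortex, 1 for anterior pituitary against cerebellum, 1 for posterior against anterior pituitary, 0 for bound choroid plexus and 1 for bound cortex between genotypes. On nuclear protein-coding genes alone, GFP-negative cerebellum gave 1. RLE and dropping the fold threshold changed no count, and no call reversed. The share of Gad1 in WT anterior pituitary and of Gabra6 in stabilized cortex had no value without replicate 2 of GFP-negative or input, the only library with reads.

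Replicate numbers were shared by groups but correlations of same-numbered deviations were -0.0038 to 0.1435 between fractions, and the labels do not say what the numbers mark, so the reported fits have no block, although input was an aliquot of the homogenate that was pulled down. With the replicate block, counts were 5 in WT cortex, 2 in WT choroid plexus, 1 for choroid plexus against cortex and 1 for posterior against anterior pituitary.

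Leaving out each library gave 0 to 1 for the genotype difference in depletion in cerebellum and posterior pituitary, 1 to 3 for anterior pituitary against cerebellum, 0 to 1 for posterior pituitary against either tissue, and 0 to 1 (GFP-negative cerebellum, bound choroid plexus, GFP-positive posterior pituitary) and 1 to 2 (bound cortex) for levels between genotypes. Depletion counts were 2 to 3 in stabilized and 3 to 4 in WT anterior pituitary, 9 and 7 to 8 in stabilized and WT cerebellum, 1 to 3 and 1 to 5 in posterior pituitary, 1 to 4 and 0 to 1 in choroid plexus, and 2 to 6 and 0 in cortex. Peak counts were 1 to 2 in stabilized anterior and 0 to 1 in stabilized posterior pituitary. The stricter peak threshold gave 0 in WT posterior pituitary, and a window of 1000 bp gave 3 in WT anterior pituitary, Snap25 being added.

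Over all genes, the 10 fraction comparisons called 1769 to 4059 genes, against 2495 to 5576 with DESeq2 and 882 to 2789 with the length offset. In WT cortex the share of calls that were higher was 64.1%, and 54.8% with the replicate block. It was 81% without the filter, 92% with only the groups compared and 87% with the length offset. In stabilized cortex it was 45.2%, and turned to a majority with only the groups compared (57.5%), the length offset (63.4%) and RLE (51.5%). The share of a gene left in ECs moved beyond the replicate SD for 18 of 71 values in CPM, 20 of 71 over nuclear protein-coding TPM, 32 of 71 with a pseudocount of 1 TPM and 3 of 71 with 0.1 TPM, and for 50 of 282 on leaving out a library. Calls lost for a gene under a setting other than a left-out library had adjusted p of 0.0543 to 0.674 with the length offset, 0.0641 to 0.434 with only the groups compared and 0.0565 to 0.0574 with the block. With 2 libraries a group, changes near 2-fold were mostly below what the test could call in simulated data.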
